A study of Rattus norvegicus with 9 samples.

Results

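The zinc finger and Krüppel-like genes of the rat heart are described here across 3 groups of libraries. Members were chosen by gene symbol alone: the KLF, SP, GATA, SNAI, ZEB, ZFHX, IKZF and HIC factors, the ZBTB genes, the CCCH genes of the ZFP36 and ZC3H families, and the ZFP, ZNF, ZKSCAN and ZSCAN genes. The rule found 159 members among the 5760 genes listed in either of the 2 deposited tables, 72 of 4288 in the table of Cal and Model, 105 of 2458 in the table that compares with the control group, and 18 in both. Of the 159, 9 were KLF or SP factors, 7 CCCH genes, 10 GATA, SNAI, ZEB, ZFHX, IKZF or HIC factors, 12 ZBTB genes and 121 ZFP, ZNF, ZKSCAN or ZSCAN genes.

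The libraries came from hearts of male Sprague Dawley rats, 3 libraries per group, each from 1 animal. All animals of the Model and Cal groups had the left anterior descending coronary artery ligated to induce heart failure (HF), and the control group (headed Con) had a sham operation. The Cal group received calycosin, an isoflavone of Astragalus, by mouth at 80 mg/kg per day for 28 days, starting 24 h after ligation. The Model group carried the ligation without the drug. Model and control animals were given distilled water by mouth in its place. The age of the animals and the part of the heart that was sequenced are not given in the sources used here, and a ligated heart holds both infarcted and surviving muscle. The values are normalized counts, which are read counts divided by 1 size factor per library.

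The column headings of the tables conflict, and every direction below depends on them. Where Cal and Model are compared, averaging the 3 libraries headed Model returned the mean column that carries the name Cal, and averaging those headed Cal returned the one named Model. The control table has libraries headed Cal and Con, and there the average of the libraries headed Cal was the mean column named Model. That table was itself deposited under the name of a comparison of Model with Con, as its mean columns are. Which naming is right could not be settled here. Libraries are named here by their sample columns, and by the mean columns the names Cal and Model would be exchanged throughout. The 3 libraries headed Cal held identical reads in both tables for all 986 shared genes, so the 2 comparisons share these libraries. Both tables list only genes that had passed a significance threshold in these same libraries, so a further test of them is not independent evidence for any gene.

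Zinc finger proteins bind nucleic acids through loops of protein folded around a zinc ion. The KLF and SP factors have C2H2 fingers that bind GC-rich and CACCC elements, and KLF2 and KLF4 are known as flow-induced factors of the endothelium, while KLF15 is known for its control of metabolism in heart muscle. Most ZFP genes encode long arrays of C2H2 fingers joined to a KRAB domain, which recruits corepressors and silences transposable elements and other genes. The CCCH proteins act on RNA: tristetraprolin (Zfp36) binds AU-rich elements and brings in deadenylases, and Regnase-1 (Zc3h12a) is an endonuclease that cuts stem loops, so that both shorten the life of inflammatory transcripts.

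In the comparison of Cal with Con, the mRNA decay genes Zc3h12a and Zfp36 were the called members furthest above Con, whereas Klf2, Klf4 and 77 of 85 ZFP, ZNF, ZKSCAN and ZSCAN genes lay below it. A gene was called when its adjusted p in limma was under 0.05 and its log2 fold change, Cal over the other group on the log2(normalized count + 1) scale, was beyond 1 in either direction. By this rule 38 of 105 members were called, 4 higher and 34 lower in Cal, where 29.0% of all 2458 listed genes were called, 18.0% higher and 10.9% lower. Without regard to size, all 105 members had an adjusted p under 0.05, as did 99.8% of all listed genes, and 103 had groups that did not overlap, as did 97.4% of all listed genes.

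Zc3h12a held 1526, 1612 and 1831 normalized counts in the Cal libraries and 109, 104 and 88.1 in the Con libraries. All 3 Cal libraries were far above the Con libraries, 16.5-fold by the means, with a log2 fold change of 4.03 (SE 0.128, n = 3 per group, limma adjusted p = 2.54e-07). Zfp36 held 6897, 4601 and 5099 in Cal against 347, 547 and 390 in Con, 12.9-fold higher in Cal with a log2 fold change of 3.70 (SE 0.197, limma adjusted p = 2.75e-06). Of the same family, Zfp36l1 was between 764 and 803 in Cal and between 500 and 541 in Con, without overlap, a log2 fold change of 0.61 that stayed under the fold limit. Zfp36l2 lay the other way, with 494, 377 and 389 in Cal against 747, 635 and 751 in Con and a log2 fold change of -0.76. The groups did not overlap for Zfp36l2 either, and its log2 fold change went beyond 1 under both other scalings, -1.08 with quantile normalization and -1.05 with median-ratio scaling.

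Other CCCH genes moved less. Zc3hav1, the antiviral protein ZAP, held 814, 731 and 1243 in Cal against 498, 744 and 481 in Con, with a log2 fold change of 0.68 (SE 0.230) and groups that overlapped in 1 pair of libraries. Its adjusted p of 0.0179 depended on the libraries and the scaling. It was 0.0593 without the third Cal library, 0.0631 without the first Con library and 0.0674 without the third, 0.226 with quantile normalization and 0.157 with median-ratio scaling. Zc3h14, which binds poly(A) tails, was slightly lower in Cal, between 899 and 969 against 1112 to 1177 in Con, a log2 fold change of -0.31.

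**Figure D1:**
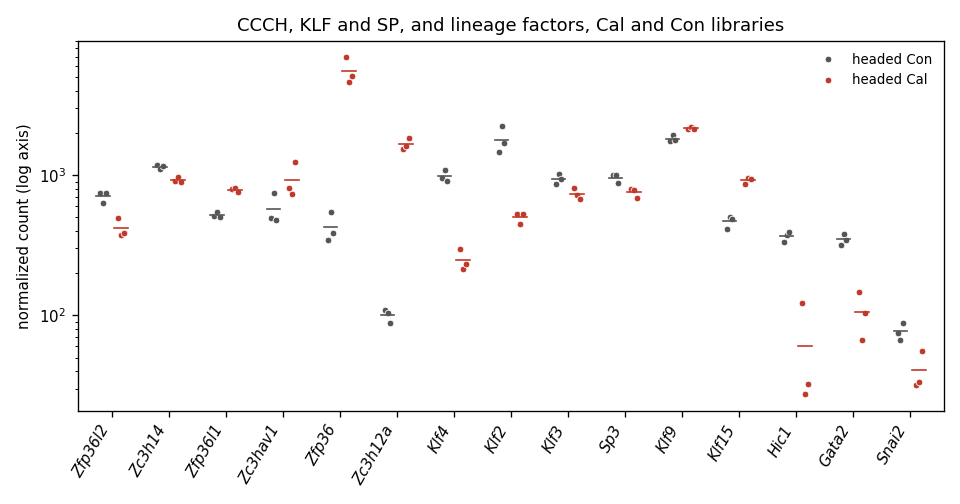
Normalized counts (log axis) of the CCCH genes, the KLF and SP factors, and the GATA, SNAI and HIC factors in the control table. Each point is 1 library, 3 headed Con and 3 headed Cal, and each bar the mean; Zc3h12a and Zfp36 lie more than 10-fold higher in Cal, and Klf4, Klf2, Hic1 and Gata2 lie below Con without overlap.

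Divided by gene length, Zfp36 was the most abundant member in the Cal libraries of the control table, with 1594 normalized counts per kilobase against 123 in Con. It was followed there by Zfp46 at 769, Klf9 at 664 and Zc3h12a at 575 per kilobase. In Con the order was led by Klf2, with 969 per kilobase, followed by Klf9 at 558 and Klf4 at 322. In the Cal libraries Klf2 stood at 273 and Klf4 at 81.0 per kilobase.

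Transcripts known to be bound by ZFP36 or cut by Regnase-1 were listed for 21 of 24 genes in the control table. All 21 were called higher in Cal, where 18.0% of all listed genes were. Their median log2 fold change was 5.53, beside 0.37 over all listed genes. It was 5.09 where 5 genes with at most 3 reads in each Con library were set to 3 counts. Tnf, an AU-rich cytokine transcript, held 847, 466 and 472 in Cal against 14.9, 12.8 and 4.05 in Con. Nfkbiz, a Regnase-1 target, held 5066, 3329 and 4053 against 75.5, 126 and 70.9. The decay factors and the transcripts they act on were both above Con in the same libraries. Of 10 neutrophil markers 2 were listed, S100a8 and S100a9, with a summed level of 48.5 to 183 in Cal against 13.0 to 28.5 in Con; of 10 macrophage markers only Mrc1 was listed, at 650 to 751 against 961 to 1033, and of 11 lymphocyte markers none. The part of these cells in the values of Zfp36 and Zc3h12a was not tested. In bulk tissue fewer cells of a type and less RNA per cell cannot be told apart.

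Of the KLF and SP factors, 6 were listed, 2 of them called and both lower in Cal. Klf4 held 296, 214 and 231 in Cal against 956, 1080 and 910 in Con, 3.98-fold higher in Con with a log2 fold change of -2.0 (SE 0.144, limma adjusted p = 1.37e-05). Klf2 held 531, 450 and 531 against 1455, 2234 and 1680, a log2 fold change of -1.81 (SE 0.159, limma adjusted p = 4.24e-05). For both genes the highest Cal library was well under the lowest Con library.

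Klf15, a glucocorticoid-induced regulator of cardiac metabolism, held 868, 961 and 938 in Cal against 414, 505 and 490 in Con. The groups were far apart, and the log2 fold change of 0.98 (SE 0.110, limma adjusted p = 0.000188) ended just under the fold limit. It was beyond it without the first Cal library (1.02), the second Con library (1.03) or the third Con library (1.01). Klf9, another glucocorticoid-induced factor, was between 2137 and 2217 in Cal and between 1760 and 1925 in Con, a log2 fold change of 0.25 whose sign depended on the scaling, -0.22 with quantile normalization and -0.03 with median-ratio scaling. The repressor Klf3 (671 to 807 in Cal, 868 to 1020 in Con) and the ubiquitous factor Sp3 (687 to 793 against 876 to 1006) were lower in Cal by 0.36 and 0.34 on the log2 scale, without overlap.

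Genes known to be under endothelial KLF2 and KLF4 were listed for 9 of 12. Of these 4 were called higher in Cal, all of them adhesion or chemokine genes (Sele, Vcam1, Selp and Ccl2), where 18.0% of all listed genes were. Another 4 were lower by 0.46 to 0.70 without being called (Thbd, Cdh5, Tek and Edn1), and Adm was higher by 0.61 without a call. Edn1, which KLF2 represses, held 54.7, 53.7 and 50.5 in Cal against 83.9, 100 and 77.9 in Con (-0.70). Thbd, the thrombomodulin gene that KLF2 and KLF4 activate, held 1149, 1073 and 1154 in Cal against 1519, 2065 and 1712 in Con, a log2 fold change of -0.64. The median over the 9, which mixes genes that these factors activate with genes that they repress, was 0.61. Of the KLF15 list, 8 of 18 were listed, 7 higher and none called, with a median of 0.44, near that of all listed genes. Among them were Per1 (870 to 1458 in Cal against 618 to 761 in Con) and Fabp3 (46201 to 55411 against 36153 to 39627).

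Of 10 endothelial markers 7 were listed, 6 lower in Cal (2 called, Kdr and Egfl7) and 1 called higher (Cldn5). Among all listed genes 39.3% were lower, with 10.9% called lower and 18.0% called higher. Cdh5 and Tek, both lower, are on the KLF2 and KLF4 list as well. The summed level of the 7 markers was 14304 to 16084 in Cal and 20968 to 24348 in Con, and none was at 0. The part of these cells in the values of Klf2 and Klf4 was not tested. The 6 endothelial markers lower in Cal had log2 fold changes from -1.15 (Egfl7) to -0.44 (Pecam1), and Cldn5 had 1.30.

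The 250 bases before the start of 4 of these genes are shown for the CCCH genes and KLF factors on which the comparison turned, so that the elements known for these factors can be seen. They are rat sequences of RefSeq on build GRCr8, given 5′ to 3′ along the gene, and 112 of the 159 members had such a window by symbol. Capitals mark each match on either strand to the KLF and SP box CACCC, the GC box GGGCGG, the AP-1 site TGANTCA, the E-box CACGTG, the TATA box TATAAA, the interferon-stimulated core, the NF-kappaB site or the CArG box of serum response factor.
Zfp36 (chr1:92799109-92799358, minus strand): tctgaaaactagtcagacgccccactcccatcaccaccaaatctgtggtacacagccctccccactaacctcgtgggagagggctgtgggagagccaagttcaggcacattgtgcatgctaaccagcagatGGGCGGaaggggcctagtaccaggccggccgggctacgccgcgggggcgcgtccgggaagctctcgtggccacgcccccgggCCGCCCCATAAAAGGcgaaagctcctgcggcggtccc
Zc3h12a (chr5:142669986-142670235, minus strand): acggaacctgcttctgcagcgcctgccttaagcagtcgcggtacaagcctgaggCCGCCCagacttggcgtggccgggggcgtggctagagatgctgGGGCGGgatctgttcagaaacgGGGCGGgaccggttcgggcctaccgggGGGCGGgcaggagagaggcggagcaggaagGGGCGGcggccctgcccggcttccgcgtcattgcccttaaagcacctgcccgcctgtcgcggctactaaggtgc
Klf4 (chr5:75078593-75078842, minus strand): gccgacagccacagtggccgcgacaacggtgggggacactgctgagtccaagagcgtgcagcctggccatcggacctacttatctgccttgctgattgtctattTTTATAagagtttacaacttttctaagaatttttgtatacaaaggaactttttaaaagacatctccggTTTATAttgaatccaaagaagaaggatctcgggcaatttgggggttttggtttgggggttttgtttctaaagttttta
Klf15 (chr4:124522765-124523014, plus strand): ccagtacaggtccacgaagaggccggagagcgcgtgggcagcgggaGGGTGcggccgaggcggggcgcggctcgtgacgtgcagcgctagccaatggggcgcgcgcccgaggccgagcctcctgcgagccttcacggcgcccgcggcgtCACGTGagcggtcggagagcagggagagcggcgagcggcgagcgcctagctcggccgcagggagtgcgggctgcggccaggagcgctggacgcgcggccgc
The Zfp36 window held 2 GC boxes and 1 CArG box, which shares a base with the second GC box. The Zc3h12a window held 5 GC boxes, the Klf4 window 2 TATA boxes in the reverse orientation, and the Klf15 window 1 CACCC box and 1 E-box. Over all 27457 rat promoters, 32.4% held a GC box, 49.4% a CACCC box, 13.1% a TATA box, 5.79% the E-box and 1.5% a CArG box. Among the members the shares were 41.1%, 57.1%, 8.93%, 6.25% and 2.68%. These are matches of letters and not tests of binding.

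Of the lineage factors, Hic1, Gata2 and Snai2 were listed, all lower in Cal. Hic1, a repressor known from quiescent mesenchymal cells, held 122, 27.4 and 32.4 in Cal against 335, 371 and 396 in Con. The log2 fold change was -2.91 (SE 0.486, limma adjusted p = 0.00132) and -3.58 without the first Cal library, which stood above the other two. Gata2, an endothelial and blood factor, held 148, 66.3 and 104 against 319, 380 and 346, a log2 fold change of -1.78 (SE 0.264, limma adjusted p = 0.000753). Snai2, known from epithelial-mesenchymal transition, held 32.0, 33.7 and 56.2 against 75.5, 66.8 and 88.1, a log2 fold change of -0.94 that went beyond the limit without the third Cal library (-1.19) or the second Con library (-1.03) and with median-ratio scaling (-1.22).

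All listed stromal markers also lay lower in Cal than in Con. Across all listed genes 39.3% were lower in Cal and 10.9% were called lower. Of 9 fibroblast markers 4 were listed and lower (1 called, Pdgfra), with a summed level of 9550 to 12371 in Cal against 14389 to 16008 in Con. Of 8 smooth muscle and pericyte markers 5 were listed and lower (1 called, Kcnj8), at 14136 to 15865 against 19623 to 23121. None was at 0, and their part in the values of Hic1, Gata2 and Snai2 was not tested. Of 10 mesenchymal genes 4 were listed, 3 of them lower and none called, with a median of -0.61.

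The ZFP, ZNF, ZKSCAN and ZSCAN genes were the largest class, with 85 listed in the control table. Of these 77 had a lower mean in Cal (90.6%), where 39.3% of all listed genes did, and 30 were called lower against 2 called higher. Their median log2 fold change was -0.82, beside 0.37 over all listed genes. Of the 154 other listed genes to which the authors assigned a transcription factor family, 64 were lower in Cal (41.6%). The difference between ZFP genes and other genes was not tested, since the list was chosen with these results known.

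**Figure D2:**
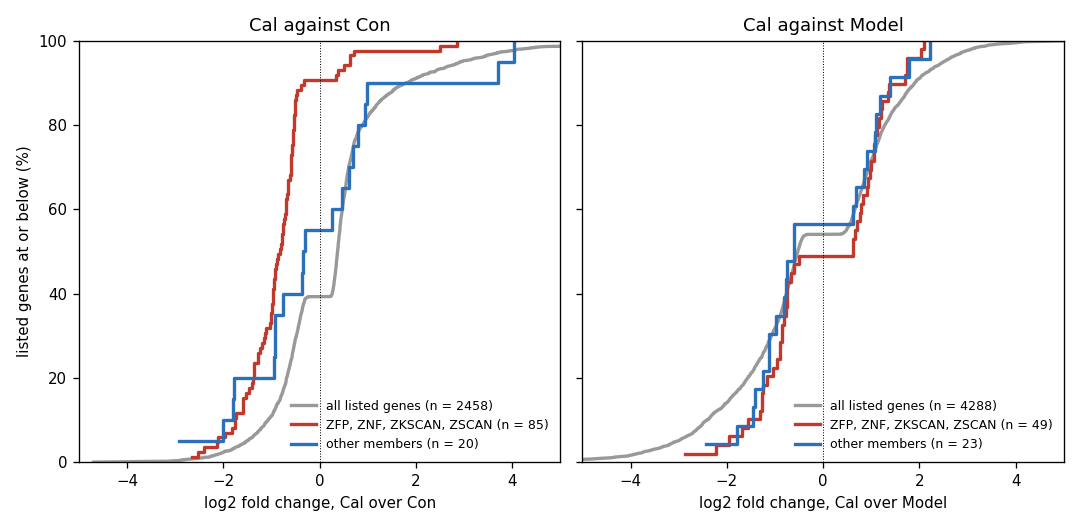
Share of listed genes (%) at or below each log2 fold change, Cal over Con at left and Cal over Model at right, for all listed genes, the ZFP, ZNF, ZKSCAN and ZSCAN genes, and the other members; genes beyond 5 in either direction lie outside the axis. At left 90.6% of the 85 ZFP genes are below 0 against 39.3% of all listed genes, and at right the curves run close together.

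ZFP transcripts were of low abundance, and the direction was the same at low and at higher levels. Of 42 ZFP genes with a mean under 100 normalized counts, 41 were lower in Cal, where 56.5% of all listed genes at that level were. Of 43 with a mean of at least 100, 36 were lower in Cal, where 35.4% of all listed genes at that level were. The median log2 fold change was -1.21 in the first group and -0.58 in the second.

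**Figure D3:**
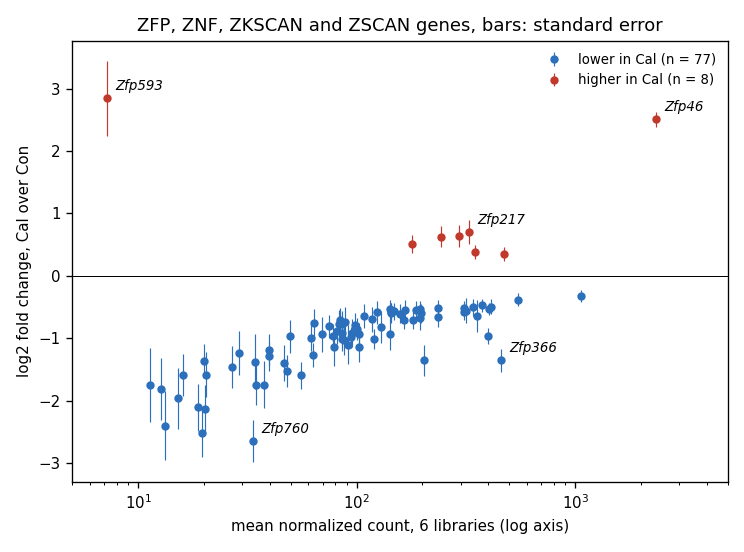
Log2 fold change, Cal over Con, of the 85 ZFP, ZNF, ZKSCAN and ZSCAN genes against their mean normalized count over 6 libraries (log axis). Points are genes and bars the standard error; 77 lie below 0 and 8 above, with Zfp46 the only abundant gene that is far above.

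Among the called ZFP genes with at least 50 normalized counts in the higher group, 6 lay lowest. Zfp760, on mouse chromosome 17, held 8.25, 6.31 and 10.5 in Cal against 40.1, 75.6 and 59.7 in Con, a log2 fold change of -2.65 (SE 0.336, limma adjusted p = 0.000348) that was -1.87 with a pseudocount of 10. Zfp287 held 23.7, 11.6 and 12.4 against 52.2, 57.0 and 50.6 (log2 fold change -1.75). Zfp595 held 16.5, 26.3 and 9.52 against 49.4, 74.6 and 48.6 (-1.74). In all 3 genes the highest Cal library was under the lowest Con library. Zfp87, Zfp354c and Zfp472 followed with log2 fold changes of -1.60, -1.53 and -1.40. Their highest Cal libraries, at 29.9, 32.6 and 34.3, were under their lowest Con libraries, at 68.8, 69.9 and 59.9.

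Only 2 ZFP genes were called higher. Zfp46 held 3493, 4296 and 4236 in Cal against 800, 663 and 651 in Con, 5.69-fold higher with a log2 fold change of 2.51 (SE 0.118, limma adjusted p = 1.37e-06). Zfp593, known from ribosome assembly, held 12.4, 14.7 and 12.4 against 0.932, 2.95 and 0, and no fold is given because no Con library held more than 3 reads. The other 6 that were higher (Zfp217, Zfp516, Zfp703, Zfp775, Zfp787 and Zfp622) had log2 fold changes of 0.35 to 0.70.

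Many of the lower ZFP genes were neighbours. By the mouse coordinates of the tables, whose build is not named there, 14 of the 85 lay on chromosome 17 and 11 on chromosome 13, all 25 lower in Cal, and 15 on chromosome 7, of which 14 were lower. Of all listed genes on these chromosomes, 30.7%, 54.8% and 34.6% were lower. A run of 9 genes on chromosome 13 (67312998 to 67827002, Zfp595 to Zfp273) had log2 fold changes from -1.97 to -0.70, with 7 called and no other listed gene between them. A run of 9 on chromosome 17 (21008903 to 23193252, Zfp160 to Zfp40) ranged from -2.65 to -0.57, with 5 called. A second run of 5 on chromosome 17 (32879219 to 33394641, Zfp870 to Zfp101) ranged from -1.40 to -0.60, with 2 called, and 1 of 5 on chromosome 7 (29768552 to 30107622, Zfp84 to Zfp260) from -1.82 to -0.38, with 1 called. In a run of 5 on chromosome 6 (47835661 to 48623227, Zfp398 to Zfp775), 4 were lower and Zfp775 higher, from -1.10 to 0.51, with 1 called.

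Counts of single ZFP genes are uncertain, because these genes form families of near-identical copies, how reads with several matches were counted is not given, and rat reads stand under mouse identifiers. Of the 105 members of this comparison, 17 had no rat gene of that symbol or synonym on GRCr8 (16.2%, against 9.19% of all listed genes), all 17 of the ZFP class. All 17 were lower in Cal and 10 of them called, with a median of -1.13. Of the 88 members with a rat symbol, 71 were lower (80.7%), with a median of -0.71.

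The KRAB corepressor machinery was hardly listed, at 2 of 16 genes. Cbx3, a heterochromatin protein, held 362, 377 and 300 in Cal against 486, 506 and 467 in Con, and Atf7ip 1061, 921 and 1117 against 1318, 1310 and 1368, with log2 fold changes of -0.49 and -0.37. Of the 5 ZBTB genes listed, none was called: Zbtb14 and Zbtb1 were lower by 0.92 each on the log2 scale, and Zbtb17, Zbtb46 and Zbtb21 higher by 0.47 to 0.94. Of 13 corepressors that BTB proteins bind, 4 were listed and none called.

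The counts of this comparison changed with the scaling. Median-ratio scaling and quantile normalization were both computed on the listed genes alone, which were kept because they differed. Median-ratio scaling takes most genes as unchanged and quantile normalization takes equal distributions, and neither could be checked on such a list. Changes under these scalings, in counts or in single genes, therefore cannot decide whether a call holds. Median-ratio scaling on the listed genes shifted the median of all listed genes by -0.28 and quantile normalization by -0.42. The members called were then 4 higher and 57 lower with the former and 4 higher and 44 lower with the latter, and all listed genes called went from 443 higher and 269 lower to 342 and 447, and to 346 and 390. Under both, 89 of 105 members had a lower mean in Cal, in place of 88.

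The comparison of Cal with Model asks what the drug changed in the ligated heart. Here the members were divided, 35 higher and 37 lower in Cal (51.4% lower, where 54.0% of all listed genes were), with a median log2 fold change of -0.55 beside -0.52 over all 4288 listed genes. Of the 72 members 38 were called, 20 higher and 18 lower, where 60.1% of all listed genes were called, 28.4% higher and 31.6% lower. With median-ratio scaling the split was 30 higher and 10 lower among the members, and among all listed genes it went from 1219 higher and 1356 lower to 1646 and 1047. That scaling shifted the median of all listed genes by 0.30, and quantile normalization by 0.42. Here too both were computed only on genes listed because they differed, so these changes cannot decide whether a call holds. All 72 had an adjusted p under 0.05, as did 99.6% of all listed genes, and 70 had groups that did not overlap, as did 98.2%.

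**Figure D4:**
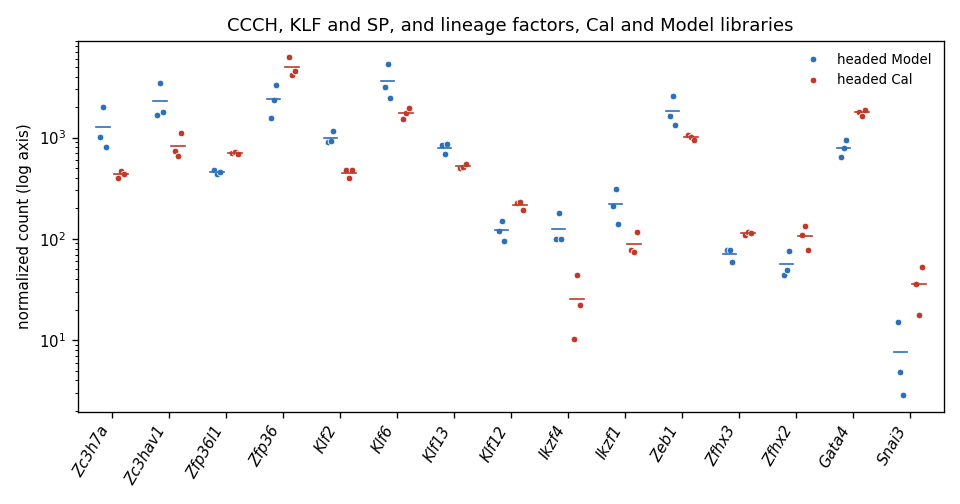
Normalized counts (log axis) of the CCCH genes, the KLF factors, and the IKZF, ZEB, ZFHX, GATA and SNAI factors in the Cal and Model table. Each point is 1 library, 3 headed Model and 3 headed Cal, and each bar the mean; Gata4 lies higher in Cal and Klf2, Ikzf4 and Ikzf1 lower, all without overlap.

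Zfp36 held 6166, 4104 and 4573 in Cal against 1554, 2320 and 3304 in Model, 2.07-fold higher in Cal without overlap. The log2 fold change of 1.09 (SE 0.288, limma adjusted p = 0.00840) was 0.82 without the first Model library and 0.92 without the first Cal library, under the limit in both. Zfp36l1 was between 685 and 716 in Cal and between 439 and 477 in Model (log2 fold change 0.63). Zc3hav1 and Zc3h7a, an RNA-binding protein of microRNA processing, were called lower in Cal. Zc3h7a held 398, 469 and 432 in Cal against 1009, 2017 and 805 in Model (-1.45), and Zc3hav1 held 728, 652 and 1114 against 1682, 3416 and 1783 (-1.42, and -0.95 with quantile normalization). In both genes the second Model library was the highest. Zc3h7a overlaps an antisense gene, Gm23935, whose log2 fold change was 1.20, and strand was not stated for the counting.

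Zc3h12a was not listed in this comparison. Of the decay targets, 11 of 24 were listed here, 9 higher in Cal and 2 lower, with 8 called higher and 1 called lower. Of all listed genes 28.4% were called higher and 31.6% lower. The median of the targets was 1.46, beside -0.52 over all listed genes. Tnf held 757, 416 and 424 in Cal against 163, 132 and 87.2 in Model (2.04). Csf3, the neutrophil growth factor, lay far lower in Cal, with 45.2, 190 and 134 against 1191, 2373 and 2070 (-4.09). Neutrophil markers moved with Csf3: 9 of 10 were listed and all 9 called lower in Cal, with a summed level of 83.0 to 253 in Cal against 1058 to 1176 in Model, and Mpo at 0 in all Cal libraries. Of 10 macrophage markers 7 were listed, 5 called higher, 1 higher without a call and 1 called lower (Itgam), with a sum of 6919 to 8369 against 2439 to 3884. The part of these cells in the CCCH values was not tested.

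Klf4 and Klf15 were not listed in this comparison. Of the 4 KLF factors listed, Klf2 alone was called. It held 475, 402 and 477 in Cal against 894, 915 and 1157 in Model, a log2 fold change of -1.12 (SE 0.157, limma adjusted p = 0.000827), and -0.79 and -0.83, under the limit, with quantile normalization and median-ratio scaling. Klf6, induced by tissue injury, held 1538, 1761 and 1978 against 3136, 5310 and 2431. Its log2 fold change of -0.97 was beyond the limit on the recovered reads (-1.04 with edgeR and with DESeq2), and without the first Model library (-1.04), the third Model library (-1.22) or the third Cal library (-1.06). With quantile normalization it was -0.39 at an adjusted p of 0.112. Klf13 held 504, 515 and 551 against 835, 683 and 865 (-0.59, adjusted p 0.00613), which no longer passed with quantile normalization (adjusted p 0.194) or median-ratio scaling (0.122). Klf13 overlaps the gene Gm27252, whose log2 fold change was -2.08. The repressor Klf12 was the one KLF factor higher in Cal, with 227, 231 and 190 against 119, 149 and 94.9 (0.85). It went beyond the limit without the second Model library (1.01) and with median-ratio scaling (1.15).

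Endothelial markers lay on the other side of Klf2 in this table: 9 of 10 were listed, all higher in Cal and 5 called. Their summed level was 15513 to 18229 in Cal against 6685 to 8566 in Model. Among all listed genes 28.4% were called higher. Tek and Vwf are on the KLF2 and KLF4 list as well. The KLF2 and KLF4 list was divided, with 8 of 12 listed, 5 higher and 3 lower. Nos3, the endothelial nitric oxide synthase that KLF2 activates, held 612, 595 and 585 in Cal against 140, 112 and 205 in Model (2.01). Edn1, the endothelin gene that KLF2 represses, held 48.9, 47.9 and 45.3 against 252, 370 and 248 (-2.56). The others called were Sele (2.13) and Tek (2.06), higher in Cal, and Selp (-1.81) and Adm (-1.45), lower. Vwf (0.99) and Ace (0.66) were higher without a call. Of the KLF15 list only Pdk4 and Glul were listed, both called lower in Cal. Pdk4, which spares glucose, held 10408, 22731 and 11905 against 93951, 103462 and 78889 (-2.70).

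Gata4, a core factor of the heart muscle program, held 1786, 1642 and 1882 in Cal against 635, 796 and 946 in Model. The groups were far apart, with a log2 fold change of 1.17 (SE 0.171, limma adjusted p = 0.000957). Of 14 GATA cofactors and targets 6 were listed, 3 higher and 3 lower. The cofactor genes Nkx2-5 (1.52) and Zfpm1 (1.30) were called higher, and Hand2 (-1.23) and the natriuretic peptide gene Nppa (-1.04) were called lower. No cardiomyocyte marker of 10 was listed in this table.

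The IKZF factors of blood cells were lower in Cal. Ikzf4 held 10.1, 44.1 and 22.2 in Cal against 99.4, 180 and 98.7 in Model (log2 fold change -2.43, SE 0.516, limma adjusted p = 0.00381). Ikzf1, the Ikaros gene, held 77.5, 74.2 and 117 against 212, 312 and 139 (-1.25), and ended under the limit without the second Model library (-0.96) and with median-ratio scaling (-0.95). Of 11 lymphocyte markers none was listed, the neutrophil markers above lay lower in Cal, and 6 of the 7 listed macrophage markers higher. The part of these cells in the IKZF values was not tested. Zeb1 held 1058, 1012 and 943 against 1612, 2568 and 1332 (-0.82), with an adjusted p of 0.0119 that became 0.134 with quantile normalization and a log2 fold change of -1.02 without the third Model library. Zfhx3 was between 110 and 115 in Cal and between 58.5 and 77.8 in Model (0.67). Zfhx2 held 108, 134 and 76.9 against 44.3, 48.8 and 75.7 (0.91), and its adjusted p of 0.0195 rose above 0.05, to between 0.0566 and 0.0721, without the first or second Model library or the first or second Cal library. Snai3 held 36.0, 17.8 and 52.9 against 15.1, 4.88 and 2.88 (2.23, but 2.81 without the first Model library and 1.36 with a pseudocount of 10).

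Of 49 ZFP, ZNF, ZKSCAN and ZSCAN genes in this table, 25 were higher and 24 lower in Cal, and 14 were called higher and 11 lower. The share called was 51.0%, beside 60.1% of all listed genes. Zfp697 stood furthest down. It held 113, 248 and 193 in Cal against 1104, 1500 and 1259 in Model, 6.98-fold higher in Model with a log2 fold change of -2.86 (SE 0.289, limma adjusted p = 0.000289). Znfx1, an interferon-induced RNA helicase, held 1554, 1062 and 2677 against 4946, 11082 and 8330 (-2.23, SE 0.395, and -1.62 with quantile normalization). It overlaps the antisense RNA gene Zfas1, whose log2 fold change was -0.75. Zbtb16, the glucocorticoid-induced PLZF gene, held 505, 1500 and 577 against 2504, 2635 and 2747 (-1.79), with the second Cal library between the others and the Model libraries. Zfp52, Zfp87 and Zfp423 followed at -1.56, -1.32 and -1.27, the last at -0.98 with median-ratio scaling.

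On the other side, Zbtb46, a factor of dendritic cells and endothelium, held 577, 773 and 743 in Cal against 244, 230 and 145 in Model (log2 fold change 1.78, SE 0.236, limma adjusted p = 0.000688). Zbtb4, which binds methylated DNA, held 860, 710 and 699 against 324, 249 and 287 (1.40). Zfp395 held 165, 118 and 137 against 43.2, 30.5 and 56.5 (1.70). Zfp449, Zfp692 and Zfp768 were called at 1.37, 1.35 and 1.23, and Zfp692 ended under the limit without the second Model library (0.95). Zfp467 was called at 1.73, but its groups overlapped, and its adjusted p of 0.0221 rose to 0.0590 without the third Model library and to 0.0680 and 0.0672 without the first and the third Cal library.

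Of the 16 genes of the KRAB corepressor list only Setdb2, Daxx, Morc3 and Morc2a were listed, all 4 lower in Cal and 3 of them called. Trim28, Setdb1, Cbx1, Cbx3 and Cbx5 of that list were not listed here. Of all listed genes, 54.0% were lower in Cal and 31.6% were called lower. Setdb2, a histone methyltransferase, held 62.7, 65.7 and 92.2 in Cal against 712, 2122 and 947 in Model (-3.94). Daxx was at -2.50 and Morc3 at -1.5. Of the BTB corepressors 4 of 13 were listed and none called, and of the mesenchymal genes only Vim was listed, with 3370, 3738 and 3599 against 1635, 1504 and 1558 (1.19). Of 9 fibroblast markers 5 were listed, 4 higher in Cal (2 called, Col1a1 and Col1a2) and 1 lower without a call (Dcn). Of 8 smooth muscle and pericyte markers 2 were listed, both higher without a call. Across all listed genes 28.4% were called higher.

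The 18 members in both tables could be set side by side in 3 groups. Each table was scaled on its own, so the Model libraries were rescaled by 1.12, the ratio of the scales of the shared Cal libraries, which ranged from 1.11 to 1.12 over the 3. The order of the means is a description and was not tested, because each table keeps only genes that differed and both comparisons use the Cal libraries. Cal was the lowest or the highest group in 14 of the 18 and lay between the others in 4.

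**Figure D5:**
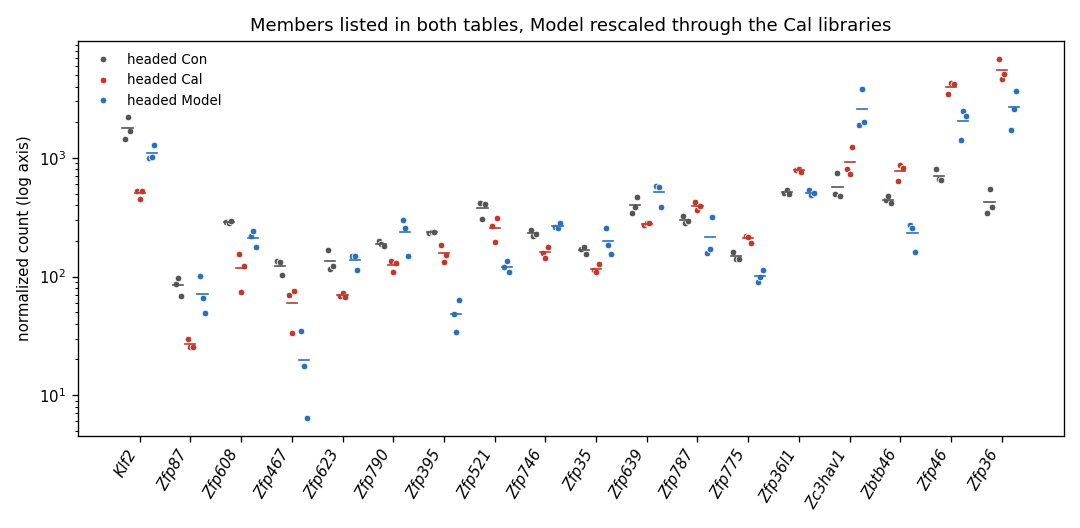
Normalized counts (log axis) of the 18 members listed in both tables, on the scale of the control table. Each point is 1 library, 3 each headed Con, Cal and Model, the last rescaled through the Cal libraries, and each bar the mean; Zfp36 and Zfp46 run from Con through Model to Cal, and Klf2 from Cal through Model to Con.

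In 2 genes the means rose from Con through Model to Cal. Zfp36 had a mean of 428 ± 106 (SD, n = 3) in Con, 2675 ± 981 in Model and 5532 ± 1208 in Cal, with no overlap between neighbouring groups. Zfp46 had 705 ± 83.1 in Con, 2069 ± 566 in Model and 4008 ± 447 in Cal, also without overlap. Its log2 fold change against Model was 0.99, and beyond the limit with quantile normalization (1.59), with median-ratio scaling (1.29) and without the second Model (1.15), the third Model (1.08) or the first Cal library (1.08). Zc3hav1 alone ran from Con (574 ± 147) through Cal (929 ± 274) to Model (2565 ± 1088), and Con and Cal overlapped.

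In 3 genes the order was Cal, Model, Con. Klf2 had 504 ± 46.7 in Cal, 1105 ± 163 in Model and 1789 ± 401 in Con. Zfp608 had 118 ± 41.4, 213 ± 31.8 and 290 ± 7.39. In Zfp87, at 27.0 ± 2.57, 71.7 ± 26.0 and 84.2 ± 14.4, Model and Con overlapped. In 3 others Model was the lowest and Con the highest (Zfp395, Zfp467 and Zfp521). Zfp395 had 48.5 ± 14.6 in Model, 157 ± 26.2 in Cal and 236 ± 2.0 in Con, with no overlap.

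In 5 genes Cal was lowest and Model highest, with Con between (Zfp35, Zfp623, Zfp639, Zfp746 and Zfp790), and only for Zfp746 did Model and Con not overlap. Zfp623 had 69.4 ± 2.76 in Cal, 136 ± 27.9 in Con and 137 ± 20.2 in Model. In 4 genes Model was lowest and Cal highest. Zbtb46 had 231 ± 60.2 in Model, 446 ± 28.7 in Con and 780 ± 118 in Cal, with no overlap, and Zfp36l1 had 510 ± 21.8, 517 ± 21.4 and 787 ± 20.9, with Model and Con overlapping. Zfp775 and Zfp787 were the other two, and their place above Con depended on the scaling: against Con the log2 fold change of Zfp787 was 0.38, but 0.10 with median-ratio scaling (adjusted p 0.498) and 0.14 with quantile normalization (adjusted p 0.368), and that of Zfp775 was 0.51, but 0.23 with median-ratio scaling (adjusted p 0.187). The test results for Zfp608, Zfp790 and Zfp521 depended on the libraries. Against Model, the adjusted p of Zfp608 (0.0184 with all) was 0.0531 and 0.0586 without the first or second Model library, and that of Zfp790 (0.0183) was 0.0641 and 0.0586 without the same libraries and 0.0581 without the second Cal library. Against Con, that of Zfp521 (0.0213) was 0.0660 without the second Cal library, 0.0749 without the first Con library and 0.0710 without the third, and its groups overlapped.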

How the data were processed

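RNA was taken from hearts of rats, 3 libraries in each of the Control, Model and Cal groups. According to the study's methods, the authors aligned reads to rat reference sequences, counted them per gene and tested genes with DESeq2. The submitters' processing notes name Bowtie 0.12.2 and the builds mm8 and mm9, with no role given, and the tables carry mouse Ensembl identifiers. The deposited signal is each gene's count divided by 1 size factor per library (normalized count), computed by the authors for each table on its own. The factor was taken from the smallest value above 0 in each library, set as 1 read. After multiplication by it, 100% of the listed values were whole numbers of reads within 0.01 read. Size factors ran from 0.820 to 1.17 and from 0.950 to 1.07. Reads on listed genes ran from 2860826 to 3998471 per library where Cal was compared with Model, and between 3270460 and 4659882 in the control table. These sums cover listed genes only, and the full depth is unknown. The authors' deposited p-value and adjusted p-value columns and fold changes hold their own comparisons and were not used, except to check that all 4288 and 2458 listed genes had an adjusted p under 0.05. Chi-square per degree of freedom between replicates ran from 10.9 to 80.7, well above sampling noise, and each library was kept as a replicate of its own.

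The members and lists were chosen with earlier results of these data known. Genes were tested with limma 3.58.1 in R 4.3.3 (trended prior variance) on log2(normalized count + 1), with Benjamini-Hochberg adjustment over all listed genes of a table and only its 2 groups in the fit. p-values measure the spread between these 3 and 3 libraries. The planned comparison of Model and Control was made between the columns headed Cal and Con. Calls were made at an adjusted p below 0.05 and a log2 fold change above 1 or below -1. Named are all KLF, SP, CCCH and lineage factors, all members in both tables, and per table the 6 highest and 6 lowest other called members without overlap and with at least 50 normalized counts on average in the higher group. Other members with no such standing were chosen after their values were seen. The alternatives tried were another pseudocount (0.1 or 10), a filter that kept genes averaging 10 or more, 2 other scalings (quantile normalization, and median ratios over the listed genes), calls with no fold limit, a replicate block, each library left out, and tests of the recovered reads with edgeR 4.0.16 or DESeq2 1.42.0. Counts were also simulated with the same dispersion for every gene, 200 genes changed by 2 on the log2 scale and all others unchanged. There limma found 200 of 200 in each table, with 3 false calls among 4288 genes and 2 among 2458. The real genes were selected for differing and their spread is unequal, so this checks the code and not the error rates of the real comparisons. A run of neighbouring genes needed at least 5 members with starts less than 1 Mb apart.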

Additional observations from a re-analysis of the deposited data

How the results depend on the processing

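No fold limit gave 4272 of 4288 genes and 72 members for Cal against Model, and 2454 of 2458 genes and 105 members for Cal against Con, because the tables hold only genes selected on an adjusted p. Median-ratio scaling gave 61 called members for Cal against Con in place of 38. Like quantile normalization, it was computed on these selected genes alone, so neither scaling can decide whether a call holds. The log2 fold change of Klf9 was -0.2199 with quantile normalization (adjusted p 0.0301) and -0.0333 with median-ratio scaling (adjusted p 0.727); the cause was not tested. Leaving out each library gave 2344 to 2704 genes and 34 to 48 members for Cal against Model, and 679 to 775 genes and 32 to 46 members for Cal against Con. The replicate numbers did not pair the libraries: deviations of same-numbered libraries correlated at 0.110, -0.119 and -0.0814 for Cal and Model and at -0.0235, -0.116 and -0.140 for Cal and Con. With the replicate block 2574 genes and 38 members were called for Cal against Model, and 713 genes and 38 members for Cal against Con, and no named gene changed sign or passed to the other side of an adjusted p of 0.05. Both pseudocounts, the filter on means, edgeR and DESeq2 kept the sign of all 38 and 34 named values and their side of an adjusted p of 0.05. Depth limits the ZFP genes of Cal against Con, where 42 of 85 had a mean under 100 normalized counts.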
